A study of Mus musculus with 18 samples.

Results

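Cluster 12 of the mouse corpus, a group of neck cells with a high level of *Cblif*, held 173 of the 3993 cells that the authors kept in their second single-cell dataset, and 173 of 4484 in both datasets together. The cells were taken by their cluster number in the deposited cell annotation. Wild-type C57BL/6J male mice, 10 weeks old, gave the cells. Gastric units of the corpus, where the acid-secreting glands lie, were dissociated in 2 pools, called K and T, each of 3 mice and each made by its own operator, so that mice and operator cannot be told apart. Single cells positive for the DNA dye Hoechst33342 and negative for the dead-cell dye ToPro3 were sorted into 6 plates of 384 wells per pool and measured by Quartz-Seq2, which marks every molecule with a well barcode and a unique molecular identifier (UMI). No cell carried a transgene or a treatment. Mice of a pool cannot be told apart, so n is 2 pools throughout. Cluster 12 had 99 cells in pool K and 74 in pool T, which came to 15.4% and 12.3% of the neck cells of clusters 0, 2, 7 and 12 in those pools (1247 in all), and every plate held between 7 and 20 of its cells.

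Neck cells sit in the neck of the corpus gland and secrete the mucin Muc6 and the trefoil peptide Tff2. Chief cells sit at the gland base and secrete digestive pro-enzymes. In the mouse they also secrete gastric intrinsic factor, the product of *Cblif*, which carries vitamin B12. Neck cells have long been described as a source of chief cells, and cells with the products of both types have been seen where neck and base meet. The change from one type to the other involves a large endoplasmic reticulum (ER), to which the transcription factors Bhlha15 (Mist1) and Xbp1 contribute.

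The median cell of cluster 12 had 20520 UMIs and 5057 detected genes, with 4.73% of UMIs from mitochondrial genes. Medians of neck clusters 0, 2 and 7 were 24232, 22531 and 21432 UMIs, and chief cells (cluster 10, 180 cells) had 34844. The authors' cell cycle calls placed 2 of the 173 cells in S and the others in G1. All 384 well barcodes occur on every plate by design, and 19 of the well barcodes of cluster 12 cells occurred in both pools (of 90 in pool K and 69 in pool T). The sort gate kept single particles, and no doublet caller was run. For the tests, the UMIs of all cells of a cluster in a pool were added up, which gave 1947944 UMIs for cluster 12 in pool K and 1566919 in pool T. Levels are counts per 1000000 UMIs (CPM) after TMM scaling, which sets the bulk of the genes equal between clusters. *Pgc* and *Clps* alone took 25.5% of the UMIs of cluster 12 in both pools and 31.2% and 30.8% of those of chief cells. With plain library totals in place of TMM, the log2 fold change of the median gene was -0.24 against neck and 0.62 against chief. With TMM these medians were -0.0083 and -0.026. Calls are from edgeR's quasi-likelihood test over 12922 genes, with a Benjamini-Hochberg adjusted p under 0.05, and log2 fold changes are given ± standard error. The fit took its spread from 28 sums of 14 epithelial clusters, with 14 residual degrees of freedom. It treated sums of 1 pool as independent, although they share their mice. Pairs of values are those of pools K and T, in that order. The clusters were drawn by the authors from these same counts, so the p-values say how far apart clusters lie and are no independent test of the grouping.

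The cluster was checked first against *Cblif*, *Muc6* and *Necab1*. *Cblif* (chromosome 19, 11724918 to 11740811 in GRCm39) stood at 8662 and 10495 CPM in cluster 12 of pools K and T. Neck cluster 2 had 66.2 and 67.3 CPM of it, cluster 7 had 484 and 453, cluster 0 had 619 and 1434, and chief cells had 25273 and 24160. Cluster 12 was above all 6 neck sums and below both chief sums, with no overlap of the sums, although single cells of these clusters overlapped. Parietal cluster 1 and mature pit cells, which should not make it, held 26.2 and 28.2 and 16.2 and 21.7 CPM. Against the mean of the 3 neck clusters the log2 fold change of *Cblif* was 4.91 ± 0.26, adjusted p = 1.22e-12, and against chief it was -1.37 ± 0.34, adjusted p = 0.00340. With plain totals the difference from chief shrank to -0.71 and was no longer called (adjusted p = 0.0688). *Muc6* (chromosome 7, 141213373 to 141241641), the gel-forming mucin of neck cells, was at 1583 and 1849 CPM in cluster 12. It had 746 and 959.8 CPM in cluster 2, 1249 and 1418 in cluster 0, 3099 and 3206 in cluster 7 and 33.5 and 78.1 in chief cells. The value of cluster 12 lay within the range of the neck clusters and far above chief cells, with log2 fold changes of 0.16 ± 0.21, adjusted p = 0.730, against neck and 4.88 ± 0.33, adjusted p = 4.87e-11, against chief. The sign against neck was not fixed, as *Muc6* was at -0.07 with plain totals, above cluster 2 alone by 1.01 (adjusted p = 0.00869) and at -0.88 against cluster 7 alone (adjusted p = 0.0802). *Necab1* (chromosome 4, 14952242 to 15149794), a calcium-binding protein, was at 12.5 and 15.6 CPM in cluster 12 and 237 and 245 CPM in chief cells. The neck sums held 0 to 2.05 CPM, with no UMI in cluster 7. *Necab1* was thus above neck and well under chief levels in both pools (-4.11 ± 0.29, adjusted p = 1.60e-09 against chief). The label thus held for *Cblif* beside the other neck clusters, while chief cells had more of it.

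**Figure D1:**
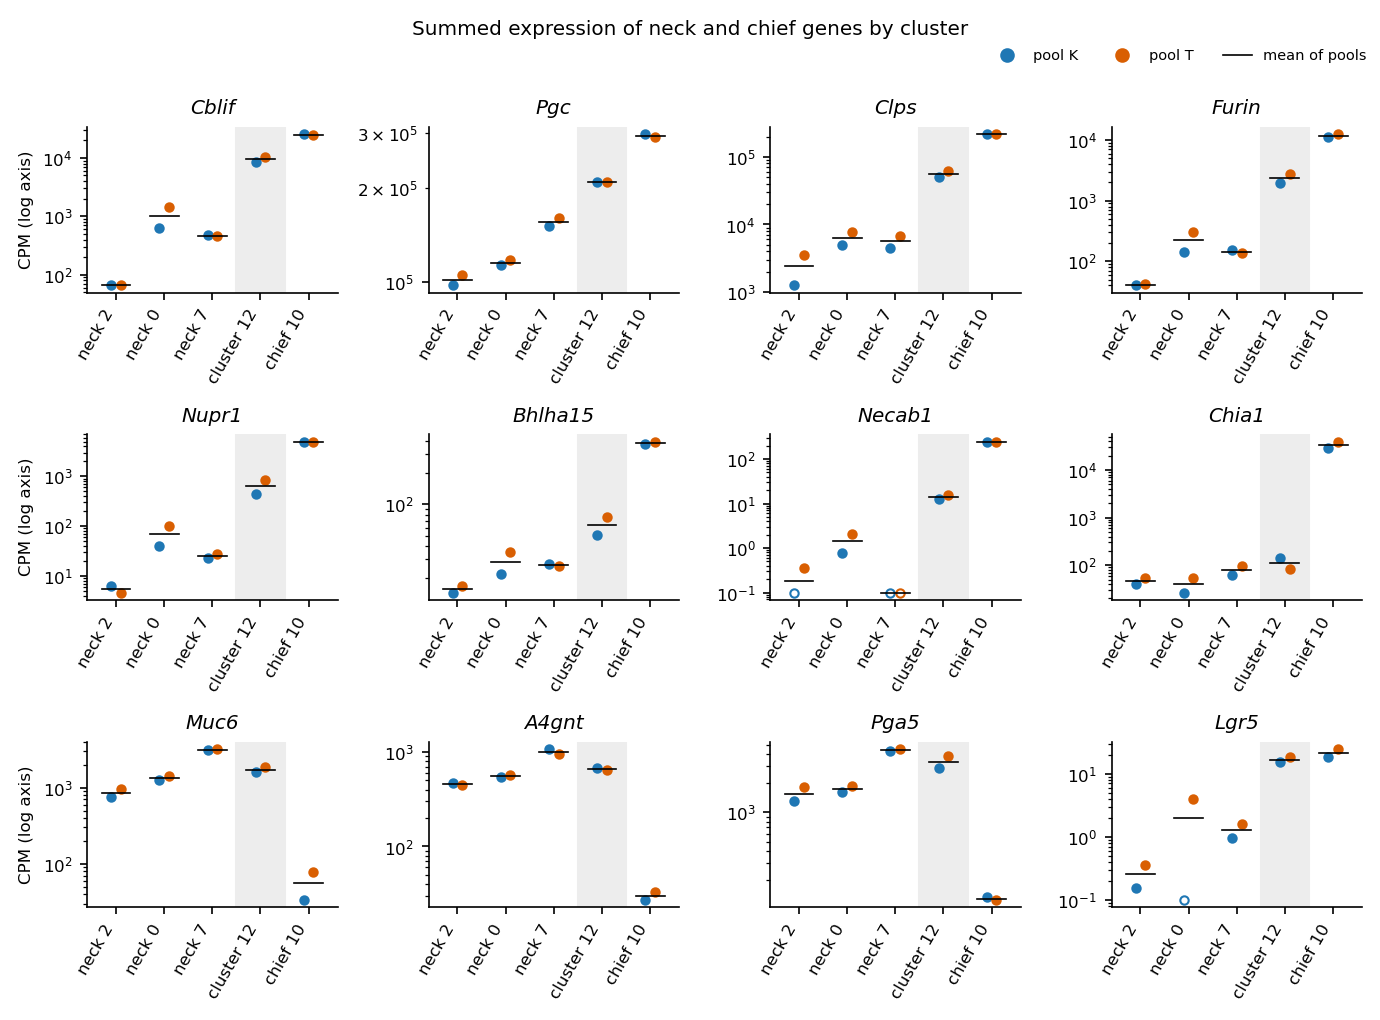
Levels in CPM (TMM-scaled, log axes) of 12 genes in neck clusters 2, 0 and 7, cluster 12 (shaded) and chief cluster 10, with a point for each pool and a line for the mean of the 2 pools; open points on the axis floor are values under 0.1 CPM. *Cblif*, *Pgc*, *Clps*, *Furin*, *Nupr1*, *Bhlha15* and *Necab1* lie between neck and chief in cluster 12, *Chia1* stays near neck, *Muc6*, *A4gnt* and *Pga5* stay in or near the neck range, and the sums of *Lgr5* lie near those of chief.

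Single cells were then examined for *Cblif* and *Muc6* together. RNA freed from broken cells can reach other wells, so a cell was counted as carrying a gene when its count per 10000 UMIs passed the 95th percentile of parietal cells (clusters 1 and 8), which make neither product. In cluster 12, 94.2% of the 173 cells carried *Cblif* (95% Wilson interval 89.7 to 96.8%), 96.0% carried *Muc6* (91.9 to 98.0%) and 156 cells, or 90.2%, carried both (84.8 to 93.8%). Both genes were carried by 89 of 99 cells in pool K and by 67 of 74 in pool T. Among the rest, 7 carried *Cblif* alone and 10 carried *Muc6* alone. In the other clusters, the share of cells with both was 53.9% in neck cluster 7, 46.7% in cluster 0, 17.0% in cluster 2 and 5.0% in chief cells. Mature pit cells, which did not set the limit and were deeper (median of 43578 UMIs), had 0.826%. Parietal clusters 1 and 8, whose shares the limit keeps low by construction, had 0.437% and 1.64%. When each cell was thinned to 10000 UMIs, which left out 6 cells of cluster 12, 89.2% of the others (83.6 to 93.1%) had at least 1 UMI of both, against 61.7% in cluster 7, 55.9% in cluster 0, 8.33% in chief cells, 2.56% in mature pit cells and 2.18% and 4.53% in parietal clusters 1 and 8. *Necab1* was found in 22 of 173 cells (12.7%) and in 95% of the 180 chief cells. Intervals cover counting error only.

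The amount of *Cblif* varied widely between cells of cluster 12. Its quartiles were 17.7, 62.2 and 140 per 10000 UMIs, and the 5th and 95th percentiles were 0.612 and 236. In neck cluster 0 the 95th percentile was 72.0 and the highest cell had 450, so some of its cells lay in the range of cluster 12. The 5th percentile of chief cells was 13.8. Quartiles of *Muc6* in cluster 12 were 5.82, 11.7 and 21.1. *Gkn3* was more uneven than both, with a median of 0.351, an upper quartile of 8.82 and a 95th percentile of 134 per 10000 UMIs, and 87 of 173 cells had any UMI of it. Over the 173 cells, which share plates and depth, the Spearman correlation of *Cblif* with the convertase gene *Furin* was 0.65 and with *Clps* 0.56, while that of *Clps* with *Muc6* was -0.57 and that of *Furin* with *Muc6* was -0.46. *Cblif* and *Muc6* themselves had -0.14. The correlation of *Gkn3* with *Smoc2* was 0.45 and with *Lgr5* 0.43. Some coefficients differed between the pools. In pools K and T, *Cblif* with *Muc6* had -0.06 and -0.25, *Furin* with *Muc6* had -0.30 and -0.63, and *Gkn3* with *Smoc2* had 0.58 and 0.29. These coefficients are descriptions of 1 set of cells and depend on the division by each cell's total.

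**Figure D2:**
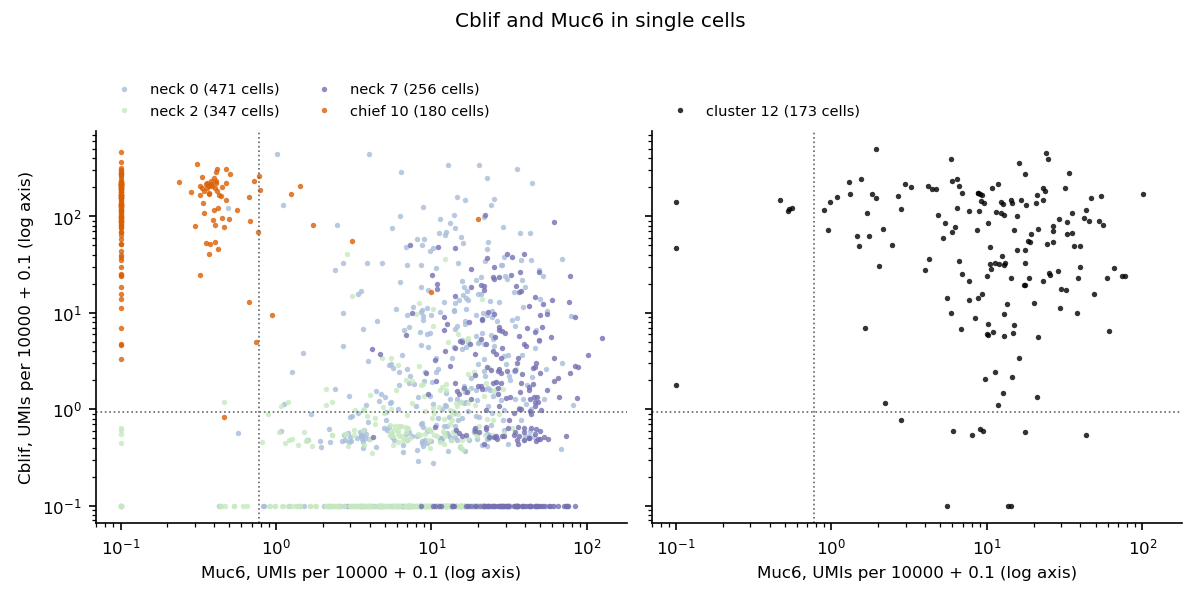
Single cells by *Muc6* (x axis) and *Cblif* (y axis), each as UMIs per 10000 plus 0.1 on log axes; the left panel shows neck clusters 0, 2 and 7 and chief cluster 10, the right panel the 173 cells of cluster 12, and dotted lines mark the 95th percentile of parietal cells. Most cells of cluster 12 (156 of 173) lie above both lines.

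To place cluster 12 gene by gene, the genes that separate chief from neck cells were taken, which are those called between chief cluster 10 and the mean of neck clusters 0, 2 and 7 with at least a 2-fold difference. There were 2312 of them, 1146 higher in chief and 1166 higher in neck, and 44.4% of all genes were called in that comparison. A gene is at neck level when cluster 12 was called different from chief and not from neck, at chief level in the opposite case, between when it was called different from both and lay inside them, and unresolved when neither difference was called. At neck level were 1074 genes (46.5%), between were 459 (19.9%), at chief level 161 (6.96%), outside the 2 ends 18 (0.779%), and 600 (26.0%) were unresolved. The share between was 33.3% with plates as the unit of the sums and 8.96% with cluster 7 alone as the neck level, where 63.4% were at neck level. Of the genes higher in chief, 506 were at neck level (44.2%), 268 between (23.4%) and 72 at chief level (6.28%). For the genes higher in neck the numbers were 568 (48.7%), 191 (16.4%) and 89 (7.63%). Cluster 12 differed from neck in 1330 genes (10.3% of those tested), of which 662 were higher (5.12%) and 668 lower (5.17%). It differed from chief in 3493 (27.0%), of which 1526 were higher (11.8%) and 1967 lower (15.2%). With plain totals the split of calls was 329 higher and 2571 lower against neck and 6359 and 472 against chief, and with no filter on low counts it was 541 and 949 against neck. A p that missed the threshold does not show that 2 levels are equal. The neck and chief contrasts share the sums of cluster 12, and the separating genes share both ends with them. On the linear CPM scale, with neck set at 0% and chief at 100%, the median gene higher in chief was at 13.8% in pool K and 15.7% in pool T, and the median gene higher in neck stood at 33.3% and 33.5%. On the log2 scale the same medians were 26.5% and 29.2%, and 19.6% and 20.6%.

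**Figure D3:**
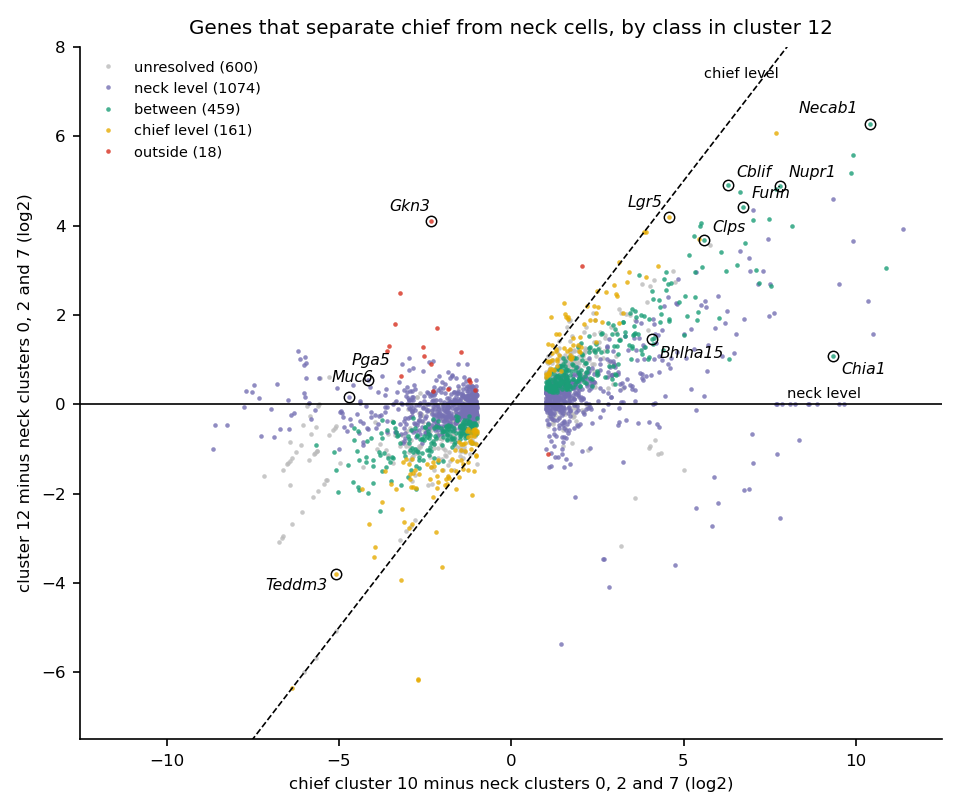
Log2 fold change of cluster 12 against neck (y axis) over that of chief against neck (x axis) for the 2312 genes that separate chief and neck, coloured by class with the number of genes in brackets; the solid line is the neck level and the dashed line the chief level. *Cblif*, *Clps*, *Furin*, *Nupr1* and *Necab1* lie between the lines, *Lgr5* near the dashed line, and *Gkn3* above 0 on the neck side.

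Products of chief cells were examined first. Of all tested genes, 5.12% were higher and 5.17% lower than in neck, and 11.8% were higher and 15.2% lower than in chief. Of 7 tested genes on the list of zymogens and secretory products, 4 were higher than in neck (*Cblif*, *Pgc*, *Chia1* and *Cst3*) and 5 were lower than in chief, while *Pga5* and *Ctsd* were higher. No gene of the list was lower than in neck, also at an unadjusted p under 0.05 or by DESeq2, but with plain totals 1 was, beside 4 higher, and the chief comparison then had 2 lower and 2 higher. Against cluster 7 alone *Azgp1*, a secreted glycoprotein, was lower (-1.28, adjusted p = 0.0377) and 2 genes were higher. The median log2 fold change was 0.55 against neck and -1.07 against chief, where all tested genes had medians of -0.0083 and -0.026. *Pgc*, the pepsinogen C gene, was at 208380 and 209180 CPM, with 97505 to 159640 in neck and 296340 and 290900 in chief sums. It was called above neck (0.78) and below chief (-0.49, adjusted p = 0.00292), but with plain totals it turned to 0.17 against chief and was not called. *Clps*, the colipase gene, chosen after its values were seen, was at 50377 and 62497 CPM against 1262 to 7812 in neck and 216240 and 215140 in chief sums, with 3.67 ± 0.24, adjusted p = 6.10e-11 against neck and -1.93 ± 0.33, adjusted p = 7.30e-05 against chief. *Chia1*, an acidic chitinase that makes up 29271 and 39098 CPM of chief cells, was at 139 and 85.0 CPM in cluster 12. Parietal cluster 1 held 41.3 and 62.0 CPM of it and mature pit cells 31.4 and 47.9, although neither should make it. Cluster 12 was above both in each pool, by a smaller margin in pool T. The call of *Chia1* against neck was 1.09 ± 0.32, adjusted p = 0.0307. That call was lost with DESeq2, with neck clusters 2 and 7 alone as the neck level (adjusted p = 0.102) and against cluster 7 alone (0.53, adjusted p = 0.678). *Pga5*, a pepsinogen of neck cells here, was at 2898 and 3778 CPM against 1309 to 4490.2 in neck and 133 and 125 in chief sums. It was at neck level, with a difference from neck of 0.55 (adjusted p = 0.0511, and 0.0235 with the pool as a block). The pancreatic-type trypsin gene *Try4*, also chosen after its values were seen, was at 164.1 and 362 CPM and 4149.8 and 5122 in chief cells, while neck sums ran from 3.45 to 109. *Cst3*, a protease inhibitor, was at 561 and 631 CPM, between 371 to 464 in neck and 1255 and 1248 in chief sums.

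On the list of granule and transcription factors of chief cells, 3 of 8 tested genes were higher than in neck (5.12% of all tested genes). Lower than in chief were 5 (15.2% of all tested genes), and the medians were 0.27 and -1.05. No call went the other way in this fit or by DESeq2, and at an unadjusted p under 0.05 there was 1 in each comparison. With the pool as a block 4 were higher and 1 lower than in neck, and with plain totals 3 were higher and 1 lower than in neck and 2 higher and 3 lower than in chief. *Bhlha15*, which enlarges the secretory apparatus, was at 51.6 and 76.2 CPM, above the 14.4 to 34.9 of neck and below the 377 and 395 of chief (1.45 ± 0.18, adjusted p = 4.63e-06, against neck and -2.62 ± 0.18, adjusted p = 4.24e-11, against chief). *Xbp1*, a factor of the unfolded protein response, was at 1488 and 1379 CPM in cluster 12, 780.4 to 1110.2 in neck and 2471 and 2329.8 in chief sums. Its difference from chief (-0.74, adjusted p = 3.32e-07) was -0.08 with plain totals, where it was not called. *Nupr1*, a stress-responsive chromatin protein, rose to 448 and 858 CPM from 4.66 to 100.3 in neck, while chief cells had 4816 and 4953. All of these were second to chief cells among the 14 epithelial clusters.

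Genes of the ER lay between neck and chief in part, with small steps from neck. Over all tested genes, 5.12% were higher than in neck, and 11.8% were higher and 15.2% lower than in chief. Of 18 tested genes for folding and the unfolded protein response, 8 were higher than in neck and 15 lower than in chief, with *Pdia3* higher. The median log2 fold changes were 0.28 and -0.97. Without the cells of cluster 12 richest in UMIs, *Dnajb11*, *Manf*, *Sel1l* and *Edem1* lost the call against neck. *Herpud1*, which acts in ER-associated degradation, was at 657 and 720.3 CPM between 256 to 673 in neck and 2492 and 2345 in chief sums (0.69 and -1.81), and its value in pool K overlapped the highest neck sum. *Creld2*, *Dnajc3*, *Sdf2l1* and *Manf*, all helpers of folding, lay between as well, while the chaperone *Hspa5* was at 1975 and 1425 CPM and at neck level. *Manf* also lost the call against neck with plain totals and with cells thinned to 10000 UMIs, and that against chief with plain totals. Of 21 genes for entry into the ER and export from it, 12 were higher than in neck and 16 lower than in chief, with *Kdelr2* higher and medians of 0.32 and -0.64. The cargo receptor gene *Tmed3* was at 547 and 590.4 CPM, 227 to 388 in neck and 1419.5 and 1300.5 in chief sums (0.91 ± 0.07, adjusted p = 1.40e-09 against neck). *Ssr4*, a subunit of the translocon-associated complex, had 559.9 and 631 CPM, against 318 to 477 in neck and 1953 and 1868 in chief. No gene of either list was lower than in neck, also at an unadjusted p under 0.05 or by DESeq2. Scaling bears on these lists. With plain totals the folding list had 4 genes above neck and 8 below chief with 2 above, and the export list had 3 above neck and 6 below chief with 5 above. *Pdia6*, *Sec61a1*, *Ssr2*, *Ssr3*, *Spcs1*, *Sec11c* and *Lman1* then changed sign against chief. With clusters 2 and 7 alone as the neck level, 7 and 8 genes of the lists were above neck.

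Among the 8 largest rises over neck, *Cblif*, *Necab1*, *Nupr1*, *Fes*, *Furin* and *Pnliprp1* were between, *Lgr5* was at chief level and *Gkn3* lay outside. *Furin*, which encodes a convertase that cleaves pro-proteins, was at 1949 and 2805 CPM, with 40.3 to 302 in neck and 11051 and 12447 in chief sums (4.43 ± 0.18, adjusted p = 1.85e-14, against neck and -2.31 ± 0.24, adjusted p = 8.68e-08, against chief). *Fes*, a tyrosine kinase gene, was at 70.3 and 78.2 CPM, with 0.942 to 6.03 in neck and 266 and 274 in chief sums (4.76 and -1.87). Both were above all neck sums and below chief in both pools. *Furin* (chromosome 7, 80038333 to 80055184) and *Fes* (chromosome 7, 80027500 to 80037806) are neighbours on the minus strand, with *Fes* downstream, and how far reads running past *Furin* were counted in *Fes* was not tested. *Pnliprp1*, a lipase-related gene, was at 32.3 and 53.1 CPM against 0.785 to 6.36 in neck and 425 and 419 in chief sums. Some genes were at chief level, which here means called above neck and not called different from chief. *Lgr5*, a receptor for R-spondin used as a marker of cells at the gland base, was at 15.1 and 18.4 CPM in cluster 12 and 18.3 and 24.5 in chief cells, against 0 to 3.99 in neck (4.19 ± 0.60, adjusted p = 5.60e-05, against neck and -0.38 ± 0.53, adjusted p = 0.654, against chief). *Tnfrsf19* (23.4 and 12.9 CPM) and the Wnt target *Axin2* (11.5 and 17.0 CPM) were also above neck and not called different from chief. By single cells, a UMI of *Lgr5* was found in 24 of 173 cells of cluster 12 (13.9%). In chief cells, which were deeper, it was found in 46 of 180 (25.6%). The highest cell had 4.58 per 10000 UMIs in cluster 12 and 1.82 in chief cells. Of the 5 reported stem markers of chief cells, 4 were called above neck (5.12% of all tested genes), with *Prom1* the smallest at 0.30. *Runx1* was called above chief (11.8% of all tested genes). *Prom1* was called above chief as well with the pool as a block (adjusted p = 0.0257, and 0.0667 without it). With cells thinned to 10000 UMIs *Axin2* and *Prom1* lost the call against neck. With plain totals *Lgr5*, *Tnfrsf19* and *Axin2* were called above neck and *Prom1* was not, while *Runx1*, *Prom1* and *Axin2* (0.93, adjusted p = 0.0333) were called above chief and *Lgr5* stood at 0.28 against chief (adjusted p = 0.684). *Ptpro*, a receptor phosphatase gene chosen after its values were seen, had 14.1 and 13.6 CPM in cluster 12 and 15.8 and 12.4 in chief cells, against 0 to 2.69 in neck.

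Other chief genes were scarce or without a UMI. The 8 largest deficits against chief were all at neck level, and 7 of them had 0 UMIs in cluster 12 in both pools. *Slc27a2*, a fatty acid transporter, was at least 18.7-fold higher in chief cells (39.2 and 28.3 CPM), computed against 3 UMIs per sum. *Slc5a8*, a monocarboxylate transporter, was at least 11.5-fold and the ligand gene *Bmp3* at least 6.21-fold higher there. The bound was 242-fold for the transcript *Gm12888*, which had 371 and 503 CPM in chief cells and 0.521 and 1.36 in cluster 12. For *1810020O05Rik*, *Gm31816*, *Banf2os* and *Adm2* the bounds ran from 5.67 to 10.2.

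**Figure D4:**
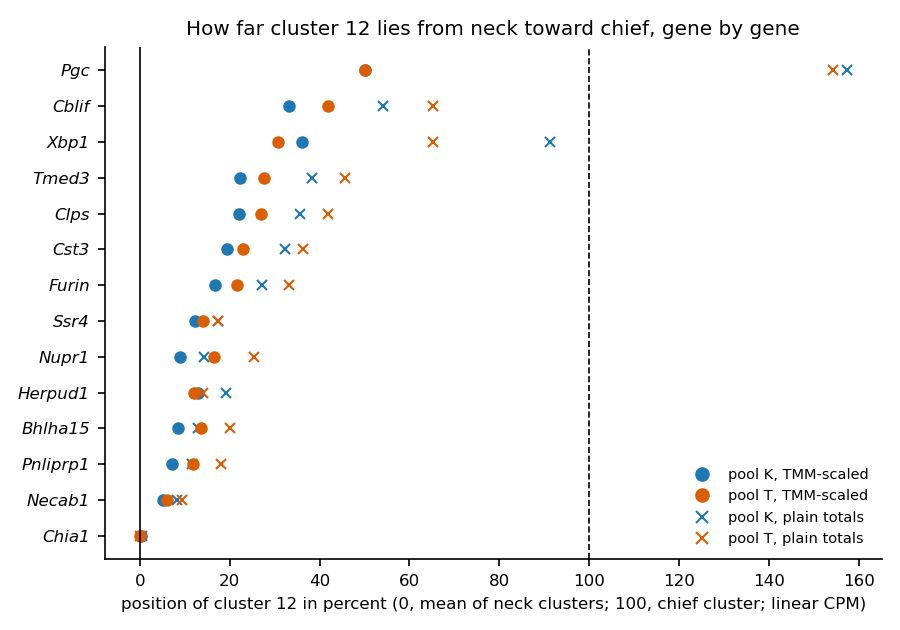
Position of cluster 12 on the linear CPM scale between the mean of the neck clusters (0%) and the chief cluster (100%) for 14 genes higher in chief, by pool; circles are TMM-scaled values and crosses use plain library totals. *Pgc* is at 50.0% and 50.0% with TMM and above 100% with plain totals, *Cblif* at 33.2% and 41.9%, *Clps* at 22.0% and 27.0%, *Furin* at 16.8% and 21.5%, *Nupr1* at 8.88% and 16.6%, *Necab1* at 5.17% and 6.08% and *Chia1* at 0.326% and 0.0428% (pools K and T).

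Mucous genes were mostly above chief levels, and in part at the level of the neck clusters. Over all tested genes, 11.8% were higher than in chief, and 5.12% were higher and 5.17% lower than in neck. Of 10 listed neck mucous genes, 9 were higher than in chief, with a median of 2.82, and against neck 2 were higher and 2 lower, with a median of 0.17. The 5 at neck level were *Muc6*, *A4gnt*, *Spdef*, *Agr2* and *Creb3l4*. *A4gnt*, which adds the terminal N-acetylglucosamine to the Muc6 glycans, was at 683 and 650.2 CPM, with 443 to 1069 in neck and 27.2 and 33.0 in chief sums. The disulfide isomerase *Agr2*, needed for mucin folding, was at 5793 and 6885 CPM, with 4263 to 8575 in neck and 1222 and 715 in chief sums. *Tff2*, the trefoil peptide secreted with Muc6, was lower. It was at 2112 and 3649 CPM in cluster 12, at 9851 and 10846 in cluster 2, 4717 and 5975 in cluster 0, 3483 and 6356 in cluster 7 and 5266 and 2892 in chief cells. Within each pool cluster 12 was below all 3 neck clusters (-1.17 ± 0.23, adjusted p = 0.00105), although its value in pool T lay above that of cluster 7 in pool K, and the difference from chief was not called (-0.50, adjusted p = 0.166). *Tspan8* was lower than in neck too (-0.54) and between. *Creb3l1* and *Gkn3* were above both ends, the former by 0.31 over neck, a call lost with plain totals.

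Glycosylation enzymes were mostly above chief levels and in part below neck. The shares over all tested genes were 11.8% higher and 15.2% lower than in chief, and 5.12% higher and 5.17% lower than in neck. Of 15 tested genes, 11 were higher than in chief (15 with plain totals) and 1, *C1galt1c1*, lower, a sign that turned with plain totals. Against neck 4 were lower (8 with plain totals) and none was higher, where DESeq2 and edgeR with the pool as a block each called 1 higher and 3 had an unadjusted p under 0.05. The 4 were *Galnt6* and *Galnt10*, which start O-glycans, *C1galt1*, which extends them, and *B4galt1*, a galactosyltransferase, and their changes ran from -1.02 to -0.50. *C1galt1* was at 156 and 162.6 CPM against 181 to 268 in neck and 87.3 and 80.3 in chief sums. Of 16 tested transcription factors of neck and gastric cells, 7 were higher than in chief and 1 lower, and against neck 3 were lower. With plain totals 12 were higher than in chief and 7 lower than in neck. *Sox9* (651 and 593 CPM), *Spdef* (337 and 367) and *Klf5* (656 and 514) were at neck level. *Foxq1*, a forkhead factor linked to mucin secretion, was at 195 and 185 CPM, under the 237 to 458 of neck and over the 50.0 and 57.5 of chief (-0.78 ± 0.12, adjusted p = 5.25e-05 against neck). *Klf4* was at 23.4 and 27.2 CPM, with 112 and 115 in cluster 2, 184 and 175 in cluster 0 and 21.4 and 23.9 in cluster 7. It was lower than their mean (-1.61 ± 0.13, adjusted p = 3.83e-09), not than cluster 7, and its difference from chief changed sign with plain totals. *Gata6* was lower by a smaller step (-0.28).

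The 8 largest falls below neck were mostly of scarce genes. *Epdr1*, *5330409N07Rik*, *Hhex*, *Gm45902* and *Gm14303* had no UMI in cluster 12, and the neck levels, at most 3.94 CPM for *Epdr1* in any sum, were too near the limit of 3 UMIs to give a fold. With DESeq2 these 5 and *Mylk* lost the call against neck. *Teddm3* was the clearest, with 6.25 and 2.04 CPM in cluster 12 and 47.3 to 87.1 in neck sums (-3.79 ± 0.26, adjusted p = 2.72e-10), and 1.26 and 2.15 in chief cells. *Fhl1*, a LIM-domain protein, was at least 6.88-fold and the kinase gene *Mylk* at least 2.84-fold lower than in neck. *Teddm3*, *Fhl1* and *Mylk* were at chief level. Among the 8 largest rises over chief, *Rassf10*, *Lox*, *Kcne3*, *Cldn22*, *Acot1* and *Tmem213* were at neck level, with bounds from 3.77-fold for *Tmem213* to 14.9-fold for *Lox*, a lysyl oxidase.

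Some genes lay outside both ends, here meaning called different from neck and from chief in the same direction and beyond all 4 of those clusters in each pool. Above both neck and chief were 87 genes (0.673% of those tested), and below both 59 (0.457%). The 10 largest of the first group were all highest in cluster 12 among the 14 epithelial clusters. *Gkn3* (chromosome 6, 87360238 to 87365917), a secreted gastrokine, was at 1569 and 2256 CPM in cluster 12, 6.12 and 22.6 in cluster 2, 102 and 551 in cluster 0, 301 and 406 in cluster 7 and 30.4 and 15.9 in chief cells. Cluster 12 stood above every other sum in both pools (4.10 ± 0.49, adjusted p = 2.89e-06, against neck and 6.44 ± 0.89, adjusted p = 5.11e-06, against chief). *Smoc2* (chromosome 17, 14499735 to 14625074), a matrix protein gene used as a stem cell marker in other gut tissues, was at 62.5 and 91.1 CPM, against 0.716 to 20.5 in neck and 6.32 and 4.29 in chief sums (3.92 ± 0.36, adjusted p = 6.90e-08, against neck and 3.88 ± 0.54, adjusted p = 7.74e-06, against chief). A UMI of *Smoc2* was found in 43.4% of the cells of cluster 12, so its median cell had 0, and in 14.9% of cluster 0. The highest cells of these clusters had 11.5 and 11.7 per 10000 UMIs. *Bpifb1*, a secreted antimicrobial-type protein, was at 1488 and 2912 CPM, with 418 to 1141 in neck and 152 and 151 in chief sums. Its high sum did not extend to the median cell, which had 2.52 per 10000 UMIs in cluster 12 and 4.24 in neck cluster 0, and 82.1% of cells had a UMI of it against 90.7%. The 95th percentiles were 71.1 and 45.9. *Pigr*, which carries IgA across epithelia, was at 149 and 129 CPM, with 21.1 to 63.6 in neck and 25.3 and 25.3 in chief sums. *Klk1*, a kallikrein protease, had 341 and 370 CPM, with 62.8 to 186 in neck and 139.7 and 66.5 in chief sums. For each of these both sums of cluster 12 were above all of the others. *Peg3*, *Ror2* (a Wnt5a receptor), *Slc39a8* (a metal transporter), *St3gal4* (a sialyltransferase) and *Rcn3* (an ER calcium-binding protein) followed, at 9.90 CPM for *St3gal4* in pool K to 23.4 CPM for *Peg3*, and with log2 fold changes over neck of 1.71 to 2.49. The smallest of the 10 differences from neck was that of *Klk1*, at 1.58.

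**Figure D5:**
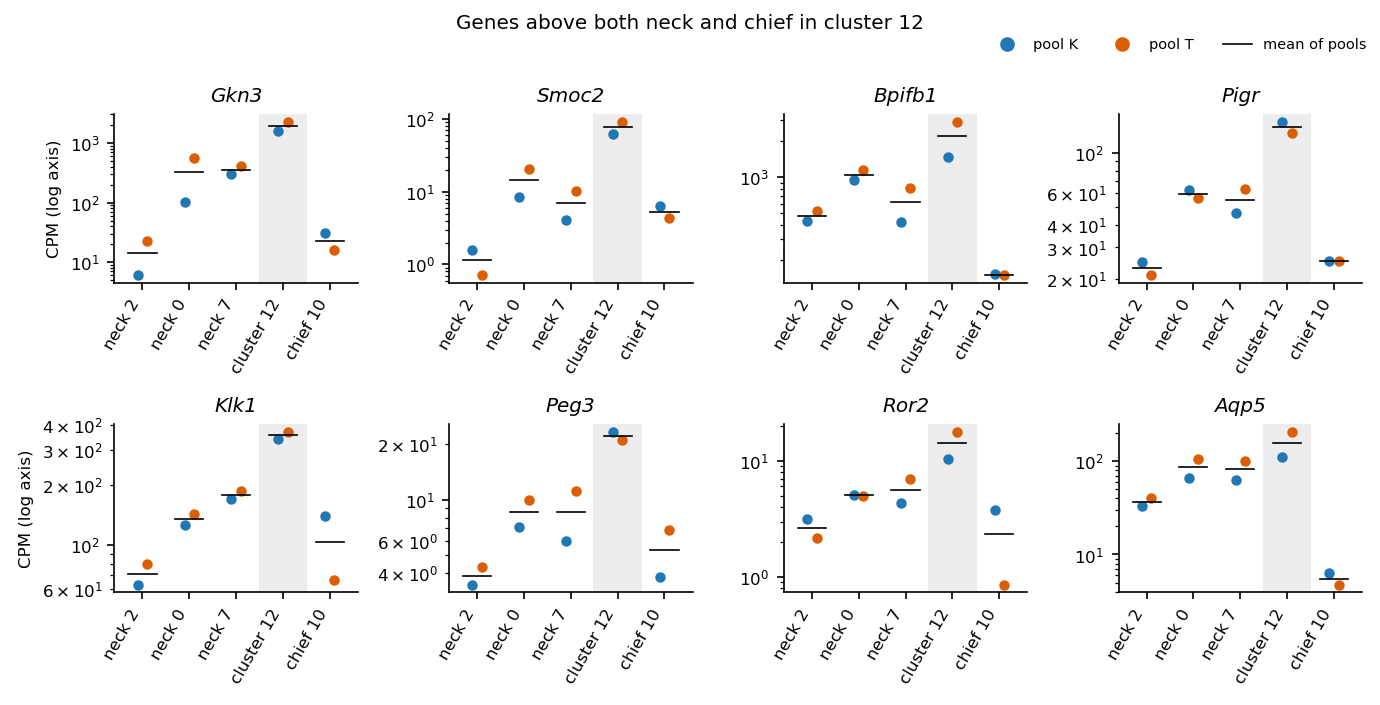
Levels in CPM (TMM-scaled, log axes) of 8 genes above both neck and chief, in neck clusters 2, 0 and 7, cluster 12 (shaded) and chief cluster 10, with a point for each pool and a line for the mean. In both pools every one of them is highest in cluster 12.

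Below both ends, *Car9*, a carbonic anhydrase, was at 216 and 205 CPM in cluster 12, with 340.4 to 748 in neck and 343 and 426 in chief sums (-1.28 ± 0.10, adjusted p = 3.54e-09, against neck and -0.87 ± 0.12, adjusted p = 3.82e-06, against chief). *Myc* was at 15.1 and 15.0 CPM, with 21.4 to 53.2 in neck and 24.7 and 58.4 in chief. *Tst*, *Atad3a*, *Pde12*, *Prcc*, *Sardh*, *Col4a5* and *Ydjc* had log2 fold changes of -1.67 to -0.66 against neck. For all of these the call against chief was lost with plain totals, and *C2cd4a* (1.56 and 4.76 CPM) was the one of the 10 that kept it. With DESeq2 *Prcc*, *Sardh* and *Col4a5* lost the call against neck and *Prcc*, *Col4a5* and *Pde12* that against chief, and with cells thinned to 10000 UMIs *Ydjc*, *Col4a5*, *Sardh*, *Prcc* and *C2cd4a* lost the call against neck and *Ydjc*, *Myc*, *Col4a5*, *Sardh*, *Prcc* and *Pde12* that against chief. The 10 named genes above both ends kept both calls with plain totals, and *Slc39a8* lost that against chief with thinned cells.

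Further lists were compared in the same way, beside 5.12% of all tested genes higher and 5.17% lower than in neck. Against chief these shares were 11.8% higher and 15.2% lower. Of 19 lysosome genes, 5 were higher than in neck and 10 higher and 4 lower than in chief. With plain totals 1 was higher and 3 lower than in neck, and 15 higher and none lower than in chief, while against cluster 7 alone *Psap* was lower and none higher. Here *Lamp1* and *Npc2* were among the genes above both. *Lamp1* lost the call against neck with plain totals. *Npc2*, which moves cholesterol out of lysosomes, was at 356 and 421 CPM against 227 to 351 in neck and 189 and 197 in chief sums. Of 9 genes of spasmolytic polypeptide-expressing metaplasia, a mucous state of injured glands, 2 were higher than in neck (*Gkn3* and *Aqp5*), 1 lower (*Dmbt1*) and 6 higher than in chief. With plain totals 3 were lower than in neck. *Aqp5*, a water channel, was at 110.4 and 208 CPM, with 33.6 to 107 in neck and 6.32 and 4.72 in chief sums (1.31 ± 0.29, adjusted p = 0.00336 against neck). *Dmbt1* was at 10.4 and 35.4 CPM, and its difference from chief (-1.71, adjusted p = 0.0886) was called with the pool as a block (adjusted p = 0.0340). *Wfdc2* and *Clu* were at neck level, *Clu* with -0.54 against neck (adjusted p = 0.0962, and 0.0166 with the block), and *Cd44* was at 7.81 and 12.9 CPM with no call. None of 6 tested Notch genes was called in either comparison by edgeR or DESeq2. At an unadjusted p under 0.05 there was 1 against neck and 2 against chief, and with plain totals 3 were called above chief and 1 below neck. The Notch target *Hes1* was at 200 and 269 CPM in cluster 12. Of 14 proliferation genes, 2 were lower than in neck (*Mcm3* and *Hmgb2*) and 2 higher than in chief (*Mcm3* and *Tcf19*). Of all tested genes, 5.17% were lower than in neck and 11.8% higher than in chief. With plain totals the counts of the list were 5 and 5. With cells thinned to 10000 UMIs *Mcm3* and *Hmgb2* lost the call against neck, and *Mcm3* that against chief. The cycling marker *Mki67* had 3.12 and 3.40 CPM.

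Markers of other cells were low. The 7 parietal markers summed to 2032 and 1753 CPM in cluster 12, 2816 to 4247 in neck sums and 64554 and 59023 in parietal cluster 1, and the most abundant in cluster 12 was *Car2*, which fell below neck (-1.07). *Kcnq1* was above both neck and chief, at 92.7 and 80.9 CPM. The 7 pit markers summed to 1175 and 1730.3 CPM, against 161260 and 178110 in mature pit cells. *Gkn2* was their most abundant member in cluster 12, *Aqp3* had 0 UMIs, *Basp1* was lower than in neck and *Muc5ac* and *Sctr* were lower than in chief. For endocrine cells *Neurod1* had 0 UMIs and 1 of 4 tested genes, *Ghrl*, was called, lower than in chief (15.2% of all tested genes). Tuft cell markers *Dclk1* and *Pou2f3* had none, and 7 of 10 stromal, endothelial and immune markers had none. The response to tissue dissociation set the neck clusters apart. Its 14 genes summed to 1810.3 and 2919 CPM in cluster 12, to 17102 and 19796 in neck cluster 0, 1286 and 1674 in cluster 2, 1016 and 1147 in cluster 7 and 6474 and 10015 in chief cells. Against the mean of the 3 neck clusters the list had a median of -0.36 and *Fos* was lower (-0.78, adjusted p = 0.0341), with no other call (3 genes lower with the pool as a block, with plain totals or at an unadjusted p under 0.05, and 2 by DESeq2). Without cluster 0 the direction turned. The median was then 0.83, *Fosb*, *Egr1*, *Atf3* and *Klf6* were higher than in neck and none was lower, and *Egr1* was also above cluster 7 alone. Of the list, 11 genes were lower than in chief, 7 with plain totals and 12 with the pool as a block. Of 8 heat shock genes, 3 were lower than in neck (*Hspa8*, *Hsp90aa1* and *Dnaja1*), with a median of -0.29, and 4 lower than in chief. Over all tested genes these shares were 5.17% and 15.2%. Their summed level was 1329.6 and 2255 CPM in cluster 12, 5408 and 6490.3 in cluster 0, 1103 and 1406 in cluster 2 and 945 and 1058 in cluster 7. Without cluster 0 none was lower than in neck, *Hspa1a* was higher and the median was 0.65, and with plain totals none was lower than in chief and 1 was higher. Of 8 tested genes of the mitochondrial genome, *mt-Nd2* was higher than in neck (5.12% of all tested genes). Lower than in chief were 2 (15.2% of all tested genes). With plain totals none was called against neck, 7 were higher than in chief and 1 was lower, and *mt-Nd2* turned from -0.28 to 0.37 against chief. The part of the dissociation response in the other differences was not tested. With the neck level taken without cluster 0, 1252 genes were called against neck in place of 1330, and 438 genes were between in place of 459.

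Neck cluster 7 was the nearest of the neck clusters by the number of genes called. For *Cblif* (3.22 and 4.35) and *Muc6* (0.36 and -0.88) the log2 fold change was smaller against cluster 0 than against cluster 7. Taken singly, cluster 12 differed from cluster 7 in 316 genes (2.45% of those tested), of which 160 were higher (1.24%) and 156 lower (1.21%), from cluster 0 in 1811 (14.0%) and from cluster 2 in 2033 (15.7%). With the pool as a block the number against cluster 7 was 490. Sums of cluster 7 had 174 and 82 cells, those of cluster 2 had 236 and 111 and those of cluster 0 had 135 and 336, and the part of depth in these counts was not tested. Against cluster 7 alone, *Cblif* (4.35 ± 0.38, adjusted p = 6.42e-08), *Furin* (4.03), *Nupr1* (4.71) and *Gkn3* (2.45) were higher in cluster 12. The differences of *Muc6* (-0.88, adjusted p = 0.0802) and *Tff2* (-0.77, adjusted p = 0.143) were not called. Of the reported stem markers *Lgr5* alone was called above cluster 7. Of the ER lists, *Sec11c* and *Tmed3* were, where DESeq2 called 3 export genes above and 1 below. No gene of the folding list was called, by edgeR or DESeq2, where 6 had an unadjusted p under 0.05. *Pgc* had 150550 and 159640 CPM there.

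The first dataset, from corpus and antrum of a further 2 pools on 6 plates, offered another preparation. Its neck cluster 3 had 45 cells, and 17 of them (9 and 8 in the pools) passed the 95th percentile of its parietal cells for *Cblif*. Their *Cblif* level was 5059 and 6968 CPM (with library totals, without TMM), against 9.44 and 4.60 CPM in the other 28 cells and 17310 and 19323 in its chief cluster. *Cblif* chose these cells, so its own level is no result. The transcription factors *Pdx1* and *Nkx6-3*, which mark the antrum, were also higher in the *Cblif*-carrying cells of both pools. *Pdx1* was at 23.1 and 24.1 CPM against 9.44 and 9.19, with under 10 UMIs in each sum, and *Nkx6-3* was at 46.3 and 52.3 CPM against 18.9 and 29.1. Both had 0 UMIs in cluster 12, so the cells chosen here differ from cluster 12 in these markers, and their part in the values that follow was not tested. Of the 8 largest rises over neck, 7 had at least 10 UMIs there. Besides *Cblif* itself, *Gkn3*, *Nupr1*, *Fes*, *Furin* and *Pnliprp1* were higher in the *Cblif*-carrying cells of both pools. Of the 9882 tested genes with at least 10 UMIs there, 17.9% were higher in both pools and 42.3% lower. The other gene of the 7, *Lgr5*, was at 16.5 and 101 CPM against 40.9 and 39.8, lower in one pool and higher in the other. *Axin2* was lower in both pools, at 13.2 and 28.1 CPM against 28.3 and 33.7. *Tnfrsf19* was at 13.2 and 40.2 CPM against 12.6 and 10.7, close to level in the first pool, on few UMIs, and higher in the second. *Tff2* was at 16599 and 47856 CPM against 20337 and 14289, so that its lower level in cluster 12 was seen in one pool only. *Furin* was at 2708 and 744 CPM against 78.7 and 138. Of the genes above both ends, *Gkn3*, *Peg3*, *Bpifb1*, *Ror2*, *Klk1* and *Slc39a8*, 6 of 9, were higher in both pools, and *Smoc2* was lower, with 33.1 and 64.3 CPM against 40.9 and 84.3. *Teddm3*, *Fhl1* and *Mylk* were lower in both pools, as were 7 of the 10 genes below both ends. *Chia1* was at 36.4 and 16.1 CPM, against 157 and 38.3. With so few cells these values were described and not tested.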

How the data were processed

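Quartz-Seq2 UMI counts of cells from mouse stomach were used as deposited. Per the paper's methods, the authors made the counts on GRCm39 with Gencode genes, aligning with STAR and using Drop-seq tools and FASTX-Toolkit, and removed cells with few detected genes, and the submitters' processing notes name bcl2fastq 2.20.0.422. The deposited annotation gave each cell's cluster, cell cycle phase and percentage of mitochondrial UMIs, as the authors computed them with Seurat. Cells were kept as annotated. UMI counts of each of 14 epithelial clusters were summed in each of 2 pools (28 sums) and fitted with edgeR 4.0.16 in R 4.3.3 (TMM, filterByExpr, quasi-likelihood test, Benjamini-Hochberg adjustment over 12922 genes), without a block, with contrasts of cluster 12 with the mean of neck clusters 0, 2 and 7 and with chief cluster 10. The depth of the sums of cluster 12, 1947944 and 1566919 UMIs, sets the limit for scarce genes, for which a fold is a bound computed against 3 UMIs per sum. Shares of cells have Wilson intervals. Tables and figures were made with Python 3.11.15, pandas 2.3.3, NumPy 2.4.6, SciPy 1.17.1 and matplotlib 3.10.9.

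Named were *Cblif*, *Muc6*, *Necab1*, members of the gene lists, the 8 largest rises and falls in each of the contrasts with neck and chief, and the 10 genes farthest above and below both ends, all of them called, alike in direction in both pools, and with 10 or more UMIs per pool on the higher side. Other names are marked as chosen after their values were seen. The members and the lists were chosen with earlier results of these data known. Sums of 1 pool come from the same mice, so the pool pairs them. Deviations of clusters from their means correlated between clusters with a median r of 0.0987 over 91 pairs of clusters (0.000605 to 0.254). Alternatives were DESeq2 1.42.0, plain library totals, no filter, the pool as a block, 5 clusters alone, plates as the unit, cluster 12 without its cells richest in UMIs, cells thinned to 10000 UMIs, each neck cluster alone, other thresholds and each pool left out. A neck level without cluster 0 was added after seeing the data. Some genes of the lists are not reported here by name.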

Additional observations from a re-analysis of the deposited data

Results flagged for a closer look

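On the plates of pool T, *Cblif* in cluster 12 was higher on 1 plate than on the others. Its level there was 16694 CPM with plain library totals, where the lowest plate had 8036 and the median was 9409, and the gap to the next plate was 0.680 of the range over the 6 plates. It was the only one of 16 groups of plates examined whose gap passed Dixon's 95% critical value. That limit is passed by chance in about 1 in 20 groups, and the 16 groups share plates and are not independent. The plate held 7 cells of cluster 12 with 147899 UMIs, the fewest of any plate. The cause of the gap was not tested.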

How the results depend on the processing

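Several directions turned. *Muc6* against neck, 0.16 and not called, became -0.067 with plain totals and -0.88 against cluster 7 alone. Plain totals turned the sign against chief of 15 of 157 called named genes, and moved the split of calls to 6359 higher and 472 lower against chief from 1526 and 1967, and to 329 higher and 2571 lower against neck from 662 and 668. *mt-Nd2* turned against neck without the cells of cluster 12 richest in UMIs. Without neck cluster 0 the median against neck turned from -0.36 to 0.83 for the dissociation genes and from -0.29 to 0.65 for the heat shock genes. Plain totals gave 2900 calls against neck, 6831 against chief and 9773 between chief and neck, with 1531 genes between and 23 below both ends. Thinning cells to 10000 UMIs, which leaves fewer counts, gave 733, 1851 and 3312 calls, 257 genes between, 47 above both and 17 below both. Genes below both numbered 90 with plates as the unit. With neck cluster 0 alone 134 genes were above both and 149 below, with cluster 2 alone 147 and 157 (2033 calls against it), and with cluster 7 alone 18 and 7 (316 calls), with 191 between. At an adjusted p under 0.01 there were 288 between, 42 above both and 23 below both, and with at least 4-fold between chief and neck 231 were between. Singly, plain totals gave 2778 calls against cluster 0, 3441 against cluster 2 and 1130 against cluster 7, and thinned cells gave 1037, 1168 and 198. Against cluster 7, no filter gave 504 and plates 754. Where no construction of the setting shows it, the cause was not tested.

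With the pool as a replicate block there were 1612 calls against neck, 3741 against chief, 519 genes between, 105 above both and 85 below both, and 490 calls against cluster 7. No call of a named gene was lost under the block. The share of cells with both *Cblif* and *Muc6* came to 74.6% with the 99th percentile of parietal cells as the limit, to 80.9% with the 95th percentile of mature pit cells and to 96.5% at 1 UMI or more. Leaving out each pool gave 89.9 to 90.5%. After thinning to 20000 UMIs 96.0% of the cells had both. That covers the deeper cells only, as cells with fewer UMIs were left out and the median cell had 20520. Counts of calls cannot be given with 1 pool, and the log2 fold of *Necab1* over neck, 6.29 in the fit of both pools, was 3.97 to 4.25 with 1 pool left out. The latter are differences of log2(CPM + 0.5) and not fitted values, and neck cluster 7 has no UMI of *Necab1*, so these sizes depend on the value added.

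DESeq2 changed the sign of no named gene and lost 10 of 94 calls of named genes against neck and 9 of 157 against chief. Plain totals lost 20 of 94 and 33 of 157. With no filter on low counts 11 of 94 and 7 of 157 were lost, and with the 5 clusters alone 6 of 90 and 5 of 155. Without the cells of cluster 12 richest in UMIs 11 of 94 and 5 of 157 were lost, and with plates as the unit 0 of 83 and 1 of 141. Thinning cells to 10000 UMIs lost 25 of 89 against neck, among them the export genes *Sec61a1*, *Sec61b*, *Ssr3*, *Sar1b*, *Lman1* and *Mcfd2*, and 18 of 149 against chief. Only 2 pools give the spread between animals, and genes with under 10 UMIs in a sum rest on few molecules.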
